A study of Mus musculus with 47 samples.

Results

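Ifi202b and 8 interferon response genes (Ifit1, Ifit2, Ifit3, Isg15, Usp18, Irf7, Oas1a and Ifi44) were followed through the liver and spermatozoa of male mice sired by Scml2-KO or control sperm. The 9 genes were taken by name from the 23416 genes counted in each of 10 libraries, and all 9 were found. Ifi202b was chosen by its liver counts (near 0 in Ctrl-F1, present in KO-F1), so its liver values are given as a description without a test. The other 8 genes were set beside it to ask whether interferon response genes follow Ifi202b or whether it stands alone.

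SCML2 is a germline Polycomb protein encoded on the X chromosome. Ctrl-F1 and KO-F1 males came from intracytoplasmic injection of frozen testicular sperm of littermate wild-type or Scml2-KO males (C57BL/6) into BDF1 oocytes (a C57BL/6 by DBA/2 hybrid), followed by transfer to ICR foster females. Both kinds of F1 male therefore carried the wild-type X-linked Scml2 of the mother, and the prefix names the genotype of the father. KO-F2 males came from natural mating of KO-F1 males with C57BL/6 females. Whole liver was profiled in Ctrl-F1 and KO-F1 males and motile cauda epididymal spermatozoa in Ctrl-F1, KO-F1 and KO-F2 males, aged 8-12 weeks, with 2 biological replicates in each of the 5 groups. The strain label is BDF2 for F1 and BDF3 for KO-F2. The oocyte donors were hybrids, and the labels do not give which maternal copy of a locus each F1 male inherited, so with 2 males per group the inherited copy and the group cannot be told apart. The labels also do not say whether a liver and a sperm library with the same number came from the same male.

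Type I interferons bind a cell-surface receptor whose JAK kinases activate transcription factors, and a complex that contains IRF9 then binds interferon-stimulated response elements in the promoters of its targets. The response to interferon gamma uses another element, the gamma-activated site. The targets include the IFIT proteins, which bind viral RNA, the OAS enzymes, which activate RNase L, and the ubiquitin-like modifier ISG15 with its protease USP18, which also restrains receptor signalling. Ifi202b belongs to the HIN-200 family, proteins of the nucleus and cytoplasm many of which bind DNA, and it is known for levels that differ widely between inbred mouse strains.

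In GRCm38, Ifi202b lies on the minus strand at chr1:173962569-173982844 and its RefSeq transcript of 1796 bases has 7 exons. Ifit2 (chr19:34550550-34576534), Ifit3 (chr19:34583119-34588982) and Ifit1 (chr19:34640889-34650009) are neighbours on the plus strand of chromosome 19. The others are Isg15 (chr4:156199424-156200818, minus), Usp18 (chr6:121245906-121270917, plus), Irf7 (chr7:141263183-141266499, minus), Oas1a (chr5:120896256-120907544, minus) and Ifi44 (chr3:151730922-151749910, minus). Only uniquely aligned reads were counted, so stretches that recur elsewhere in the genome give no counts. Of the 1722 windows of 75 bases (the read length) in the Ifi202b transcript, 0 occur elsewhere in the reference chromosomes. Of the windows of Oas1a, 45.5% recur exactly in Oas1g, and of those of Ifit3, 37.4% recur in Ifit3b and Ifit1bl1. The levels of Oas1a and Ifit3 are therefore less certain than those of Usp18, Irf7, Ifi44 and Ifit2, which had 0 such windows.

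The 250 bases upstream of the starts listed in a RefSeq promoter table (GRCm38.p6) were read for 8 of the 9 genes. The listed starts of Ifit2, Ifit3, Irf7 and Oas1a lie inside the gene spans given above, so their stretches overlap the annotated gene. The stretch of Ifit3 and the more downstream stretch of Ifit2 lie within it. They were searched on both strands for the core of the interferon-stimulated response element, GAAANNGAAA, which is present in 2.98% of 32851 annotated promoter stretches of the same length, and for the gamma-activated site TTCNNNGAA, present in 7.02%. The response element core was found before the listed start of 4 of the 8 genes, Ifit1, Ifit3, Isg15 and Oas1a. These stretches are shown because Ifi202b, like Ifit2, Irf7 and Ifi44, had 0 matches. Matches are in capitals (overlapping in Isg15 and Oas1a). Ifit3 had 2 matches, 156 and 122 bases before the listed start, and only the nearer is shown.
Ifit1, chr19:34640785-34640814, plus strand: TTTCACTTTCcagtctcagTTTCAGTTTCt
Ifit3, chr19:34583397-34583426, plus strand: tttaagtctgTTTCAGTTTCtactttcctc
Isg15, chr4:156200871-156200900, minus strand: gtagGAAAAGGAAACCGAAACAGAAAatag
Oas1a, chr5:120907526-120907555, minus strand: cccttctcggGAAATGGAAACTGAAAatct
Ifi202b had 0 matches to the response element core in the same stretch and 1 match to the gamma-activated site, which starts 148 bases before the listed start. Ifit2 and Oas1a also had 1 match each to the gamma-activated site. The whole Ifi202b stretch is shown with that match in capitals.
Ifi202b, chr1:173982845-173983094, minus strand: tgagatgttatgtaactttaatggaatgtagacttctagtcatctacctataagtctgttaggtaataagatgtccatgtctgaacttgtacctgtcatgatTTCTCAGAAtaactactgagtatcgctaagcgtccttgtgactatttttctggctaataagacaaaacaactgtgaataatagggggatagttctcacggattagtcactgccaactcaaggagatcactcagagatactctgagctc
Ifit2, which has 2 listed starts, Irf7 and Ifi44 had 0 matches to the response element core in these windows. A match is a string of letters, and its absence says nothing on whether a factor binds elsewhere. All stretches are those of the reference genome, and the sequence of the copies that the males inherited was not read.

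Library totals were 11339729 to 14278900 counts in liver, 1503733 to 2778171 in F1 spermatozoa and 8384266 to 11462105 in KO-F2 spermatozoa. Levels are in CPM, counts per 1000000 counts of the library after TMM normalization within a tissue, and 3 counts were taken as the limit of detection of a library. The 10 hepatocyte markers all had counts in each liver library, and the 10 late spermatid and spermatozoon markers all had counts in each sperm library. The summed level of the latter was 136307 and 146108 CPM in Ctrl-F1, 47908 and 38057 CPM in KO-F1 and 149969 and 145086 CPM in KO-F2 spermatozoa, so both KO-F1 sperm libraries were below the other 4. The sperm libraries also held somatic markers. Those of epididymal epithelium summed to 21040 and 8322 CPM in Ctrl-F1 and 8790 and 11922 CPM in KO-F1 spermatozoa. Those of macrophages summed to 121 and 336 CPM and to 141 and 152 CPM. Which cells gave the counts of a gene in these libraries was not tested.

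Ifi202b had no count in either Ctrl-F1 liver and was counted in both KO-F1 livers. It had 0 counts of 14278900 and 0 of 14023819 in the Ctrl-F1 livers, and 3 counts of these totals, the limit of detection, are 0.210 and 0.214 CPM without TMM scaling. In the KO-F1 livers it had 45 counts (3.68 CPM on the same scale, 95% Wilson interval 2.75 to 4.92) and 31 counts (2.73 CPM, interval 1.93 to 3.88). The groups did not overlap, and the mean of the KO-F1 livers, 3.27 ± 0.57 CPM (SD, n = 2), was 15.8-fold the mean detection limit of the Ctrl-F1 livers (3 counts per library). This ratio leaves out the counting error of the KO-F1 libraries. Intervals and limits cover counting error only.

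Spermatozoa, which the choice of the gene did not use, gave the same order for F1 males. Ifi202b had 0 counts in both Ctrl-F1 libraries and 15 and 21 counts (4.49 and 9.01 CPM) in the KO-F1 libraries. The KO-F1 mean of 6.75 ± 3.19 CPM (SD, n = 2) was 3.52-fold the mean detection limit of the Ctrl-F1 libraries. It was 2.48-fold that limit without Ctrl-F1 replicate 1 and 2.36-fold without KO-F1 replicate 2. These ratios leave out the counting error of the KO-F1 libraries. The gene passed the filter on low counts through the KO-F1 libraries alone. No conclusion is therefore drawn from its edgeR quasi-likelihood test over 10785 genes, which missed the threshold (Benjamini-Hochberg adjusted p = 0.174). The lower summed level of the sperm markers in the KO-F1 libraries stands beside these counts, and its part in them was not tested. In bulk samples a change in the number of cells of a type and in RNA per cell cannot be told apart.

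KO-F2 spermatozoa had 23 and 9 counts of Ifi202b, 2.04 and 1.10 CPM. The limits of 3 counts in the Ctrl-F1 libraries are 1.30 and 2.53 CPM. KO-F2 replicate 1 lies between them and replicate 2 below both, so a difference between KO-F2 and Ctrl-F1 spermatozoa was not detectable at this depth. The KO-F2 libraries were both below the KO-F1 libraries, with a log2 fold change of -1.89 (SE 0.91) that missed the threshold (edgeR adjusted p = 0.179). The gene passed the filter on low counts, which needs 2 libraries, only with the KO-F1 libraries, so no conclusion is drawn from this test. From high to low, Ifi202b was at 6.75 CPM in KO-F1 spermatozoa, 3.27 in KO-F1 liver and 1.57 ± 0.67 in KO-F2 spermatozoa, and was not detected in either Ctrl-F1 group. The first and second in this order are separated by little more than the SD of the KO-F1 spermatozoa, and levels of the 2 tissues were normalized separately.

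**Figure D1:**
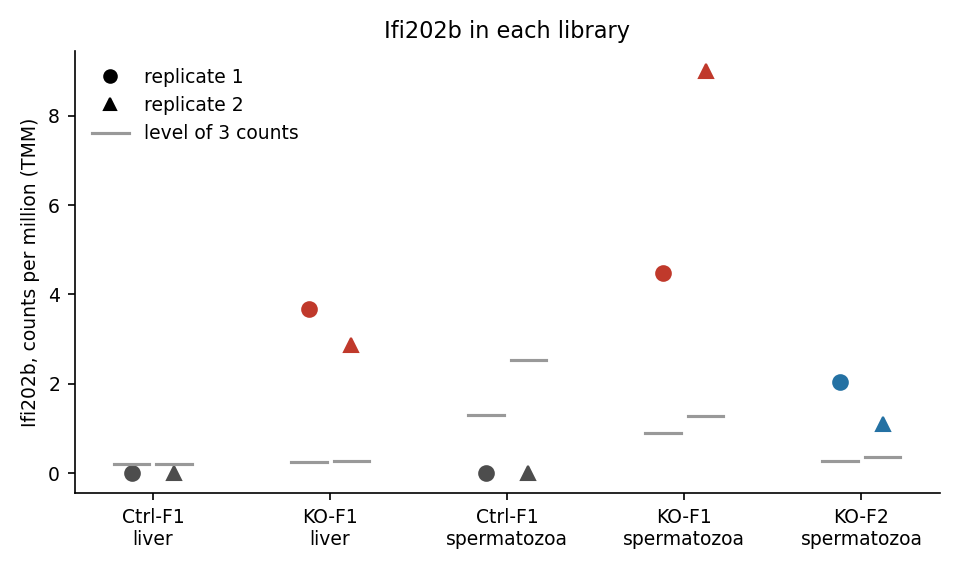
Ifi202b in CPM (TMM) in each of the 10 libraries, by group, with circles for replicate 1 and triangles for replicate 2. Grey bars mark the level of 3 counts in that library. All 4 Ctrl-F1 libraries are at 0, and the KO-F2 libraries lie below the grey bar of Ctrl-F1 spermatozoa replicate 2.

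As a description of the values by which Ifi202b was chosen, it was in liver the only 1 of 23416 genes with 0 counts in both Ctrl-F1 and at least 10 in both KO-F1 libraries, and 0 genes had the converse pattern. With the sperm libraries included, 4 genes had 0 counts in all 4 Ctrl-F1 libraries and at least 1 in all 6 others, and 0 genes had the converse. The other 3 were Bcl2a1b, a member of the BCL2 family with 3 and 2 counts in KO-F1 liver, Rasl11a with 2 and 2, and Sobp with 1 and 1. They were found after their values were seen, and in liver they lie at or under the limit of detection.

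Of the 56 genes annotated within 1 Mb of Ifi202b in RefSeq, 37 had a symbol in the count tables and 9 had at least 10 counts in 2 or more liver libraries. The nearest of these, the HIN-200 gene Ifi203 at 19.7 kb, had 2.56 and 3.76 CPM in Ctrl-F1 and 2.69 and 2.50 CPM in KO-F1 liver, and its groups overlapped. The family members Mndal (82.2 kb, log2 fold change -0.90, SE 0.62), Ifi204 (195.5 kb, -0.66, SE 0.51), AI607873 (220.7 kb, -0.37, SE 0.44) and Pyhin1 (314.6 kb, -0.07, SE 0.61) also did not pass the test, with edgeR adjusted p between 0.670 and 0.981 for the 5. All 5 fitted values were below 0 and their median was -0.37, with 0 of 5 at an unadjusted p under 0.05. The direction rested on 1 library, since without Ctrl-F1 replicate 2 the median was 0.026 with 3 of 5 above 0, while without Ctrl-F1 replicate 1 it was -0.53 with 2 of 5 lower at an unadjusted p under 0.05. Aim2, the cytosolic DNA sensor of the family, had 4 to 9 counts per liver library and was not tested.

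Outside the family, Fmn2, a formin that nucleates actin filaments 518.9 kb away, was at 1.21 and 0.07 CPM in Ctrl-F1 and 2.53 and 4.26 CPM in KO-F1 liver. Its groups did not overlap, but its log2 fold change of 2.41 (SE 0.87) did not pass the test (edgeR adjusted p = 0.504). Cadm3 (0.23, SE 0.36) and Darc, an atypical chemokine receptor (-0.67, SE 0.77), also missed the threshold.

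**Figure D2:**
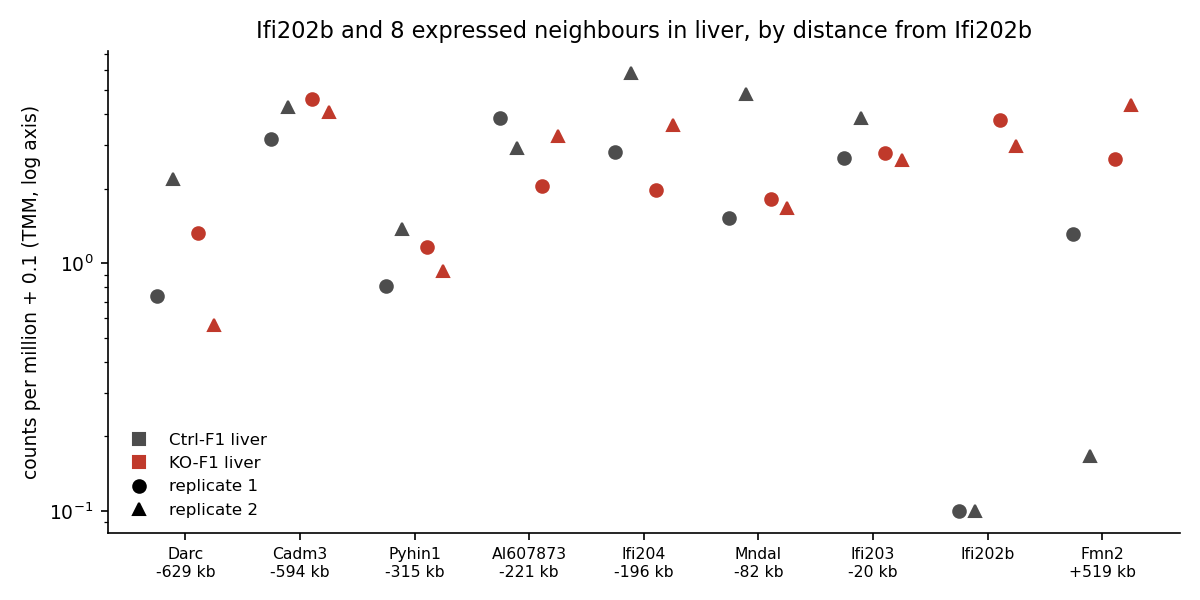
Levels of Ifi202b and 8 of its 9 expressed neighbours within 1 Mb in the 4 liver libraries, in CPM plus 0.1 on a log axis. Genes are ordered by distance from Ifi202b in kb (minus for lower coordinates), and the 2 groups are set apart for Ifi202b and Fmn2 while the HIN-200 neighbours overlap.

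In liver, the fitted levels of the other 8 genes were all above their Ctrl-F1 values in the KO-F1 males. In edgeR, 0 of 8 passed the threshold of a 2-fold change at an adjusted p under 0.01, against 0% of the 11505 genes tested. DESeq2 also called 0 of 8, against 0.274% of the 7306 genes to which it gave an adjusted p. It gave none to Ifit2, Oas1a and Ifi44, which therefore could not be called. The median log2 fold change of the 8 was 1.10, beside -0.006 over all genes tested. A fitted change above 0 was found in 49.4% of all genes. Both KO-F1 libraries were above both Ctrl-F1 libraries in 6 of 8, against 20.2% of all genes, and 4 of 8 had an unadjusted p under 0.05 with a higher level, against 3.99%. An exact permutation test of 2 against 2 libraries cannot give a p under 0.333.

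Of the IFIT genes, Ifit3 was at 7.83 and 8.27 CPM in Ctrl-F1 and 16.7 and 22.1 CPM in KO-F1 liver. Its groups were well apart, with a log2 fold change of 1.27 (SE 0.22, unadjusted p = 0.000419, edgeR adjusted p = 0.275, DESeq2 adjusted p = 0.0199). Ifit1 was at 7.18 and 8.47 CPM in Ctrl-F1 and 17.2 and 15.1 CPM in KO-F1 liver (log2 fold change 1.05, SE 0.21, edgeR adjusted p = 0.353). Ifit2, whose protein has the same repeat fold, was at 1.35 and 3.23 CPM against 2.20 and 4.45 CPM. Its groups overlapped, and its log2 fold change of 0.53 (SE 0.56) turned to -0.06 without KO-F1 replicate 2.

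Isg15, the ubiquitin-like modifier, was at 12.3 and 7.06 CPM in Ctrl-F1 and 21.4 and 28.4 CPM in KO-F1 liver. Its log2 fold change was 1.36 (SE 0.28, edgeR adjusted p = 0.353, DESeq2 adjusted p = 0.0167). Its protease Usp18 was at 11.2 and 7.12 CPM in Ctrl-F1 and 17.5 and 23.7 CPM in KO-F1 liver (log2 fold change 1.17, SE 0.27, edgeR adjusted p = 0.383, DESeq2 adjusted p = 0.0703). For both genes Ctrl-F1 replicate 1 was the higher control and the groups stood apart. Without Ctrl-F1 replicate 1, both passed the threshold, with edgeR adjusted p falling to 1.16e-05 and 0.000546. In that fit, which has a single control and assumes that it varies like the KO-F1 group, 107 of 11825 genes passed, against 0 with all 4 libraries.

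Irf7, the transcription factor that amplifies type I interferon production, had the highest mean of the 9 per kilobase of exon in Ctrl-F1 (26.6 CPM per kb) and KO-F1 liver (39.2 ± 16.5, SD, n = 2), and Isg15 came next (12.8 and 32.9 ± 6.59 CPM per kb). In KO-F1 liver the 2 genes did not differ beyond their spread. Irf7 was at 53.1 and 45.7 CPM in Ctrl-F1 and 51.3 and 94.6 CPM in KO-F1 liver. KO-F1 replicate 1 lay between the controls and replicate 2 far above them (log2 fold change 0.56, SE 0.27, edgeR adjusted p = 0.560, and 0.056 on the log2 scale without KO-F1 replicate 2). Oas1a, an oligoadenylate synthetase, was at 1.64 and 2.15 CPM against 2.37 and 6.11 CPM (log2 fold change 1.15, SE 0.53, adjusted p = 0.550, and 0.32 without KO-F1 replicate 2). Ifi44, an interferon-induced protein of the cytoplasm, was at 2.49 and 3.02 CPM against 3.10 and 5.74 CPM (log2 fold change 0.67, SE 0.43, adjusted p = 0.642, and 0.17 without KO-F1 replicate 2). In Oas1a and Ifi44 the groups were apart, by a small margin for KO-F1 replicate 1. In KO-F1 liver, Ifi202b itself ranked at rank 7 of the 9 at 1.82 ± 0.32 CPM per kb (SD, n = 2), beside Oas1a at 2.24 ± 1.40 and Ifi44 at 1.55 ± 0.65, from which it did not differ beyond the spread.

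**Figure D3:**
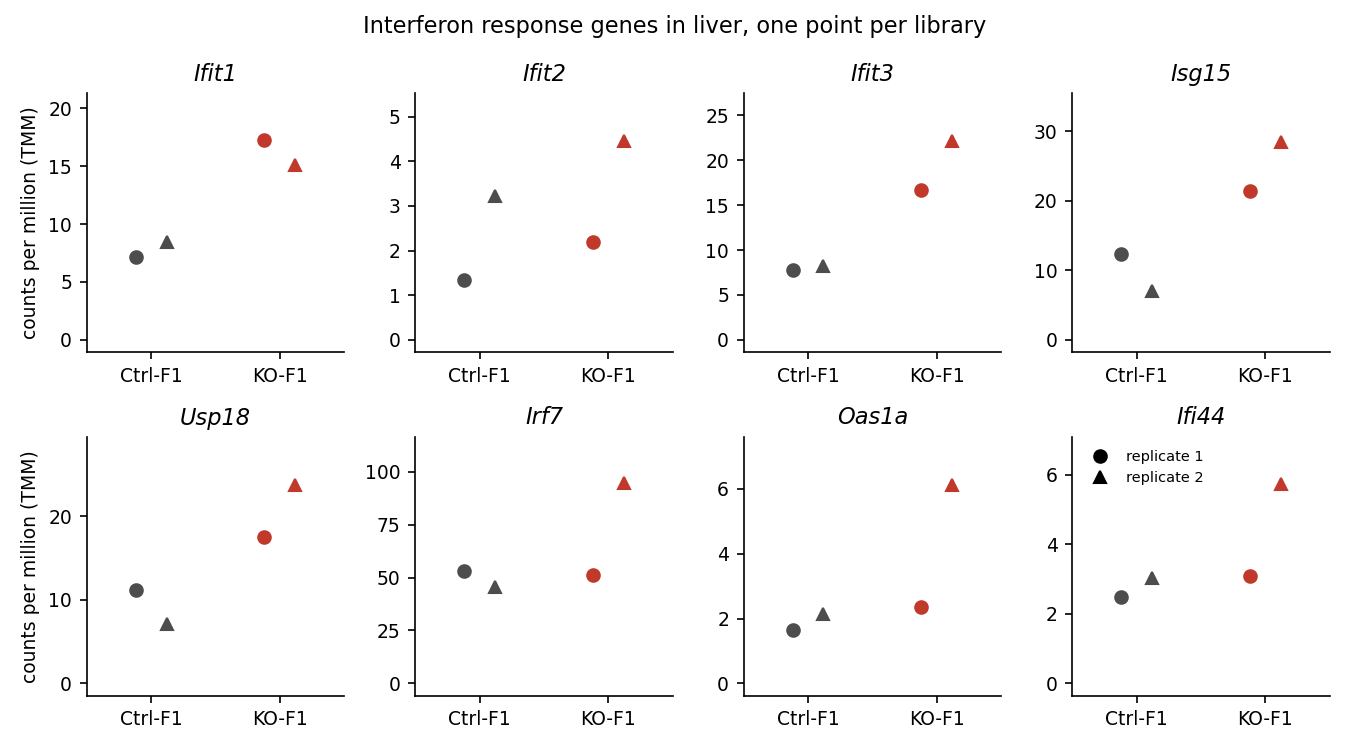
Levels of the 8 other genes in the 4 liver libraries, in CPM (TMM), each panel with its own axis. Points are single libraries (circle, replicate 1, and triangle, replicate 2). Both KO-F1 points lie above both Ctrl-F1 points in 6 panels, and the groups overlap for Ifit2 and Irf7.

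The rest of the interferon system was read from lists of genes. Of 51 genes from ligands to negative regulators, 31 were tested in liver, and 0 passed the threshold in edgeR. Their fitted values were above 0 in 27 and below 0 in 4, with a median of 0.25, beside 49.4% of all genes above 0. At an unadjusted p under 0.05 were 4, all higher, beside 3.99% of all genes. The 16 interferon ligands had at most 3 counts in any of the 10 libraries. Of 5 receptor genes tested, Il10rb, a subunit of the receptor for type III interferons, had the smallest p (7.11 and 6.79 CPM in Ctrl-F1 and 12.2 and 12.5 CPM in KO-F1 liver, log2 fold change 0.83, SE 0.22, edgeR adjusted p = 0.452). The sensors of foreign nucleic acid had a median of 0.21 over 11 genes. Socs3, an inhibitor of JAK kinases that is induced by several cytokines, had the smallest p of the list, at 3.49 and 5.04 CPM in Ctrl-F1 and 14.9 and 43.5 CPM in KO-F1 liver. Its log2 fold change was 2.77 (SE 0.48, edgeR adjusted p = 0.282), and it was called by DESeq2 (adjusted p = 2.59e-07), which called 0.274% of all genes.

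Of 86 further interferon-stimulated effectors, 76 were tested in liver and 0 passed the threshold in either tool. Fitted values were above 0 in 62 and below 0 in 14, with a median of 0.39. At an unadjusted p under 0.05, 17 were higher and 1 lower, beside 3.99% and 5.42% of all genes. All 10 antigen-processing genes had values above 0 (median 0.41), as did all 7 IFIT, IFITM and IFI27 family genes tested (0.51) and the 3 chemokines tested (1.47), while the antiviral GTPases had 11 of 14 (0.41), the OAS and RNA-binding proteins 6 of 10 (0.35) and the other antiviral and ubiquitin-linked proteins 25 of 32 (0.32). The smallest p belonged to Apol9b, an apolipoprotein L gene (108 and 100.4 CPM against 158 and 197 CPM, log2 fold change 0.77, SE 0.17, edgeR adjusted p = 0.353). Gbp3, a guanylate-binding GTPase, was at 3.63 and 4.10 CPM against 7.51 and 10.5 CPM (log2 fold change 1.21, SE 0.30, adjusted p = 0.433). Zc3hav1, an antiviral protein that binds CpG-rich RNA, went the other way, at 17.8 and 19.6 CPM against 11.5 and 10.8 CPM (log2 fold change -0.74, SE 0.18, adjusted p = 0.429).

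These list medians rested in part on 1 library. Without KO-F1 liver replicate 2, the median of the effectors was 0.09 with 46 of 77 above 0, that of the pathway genes 0.07 with 22 of 31 above 0, and that of the 8 members 0.63 with 7 above 0. Without KO-F1 replicate 1 they were 0.63, 0.38 and 1.23. In KO-F1 replicate 2 the 10 Kupffer cell and macrophage markers summed to 352 CPM, against 176 to 262 CPM in the other 3, and the 10 lymphocyte markers to 12.6 CPM, against 3.27 to 5.91 CPM. In KO-F1 replicate 1 the macrophage and lymphocyte sums (177 and 5.71 CPM) were within the range of the controls. Of the 8 members, Ifit2 and Irf7 also lay between the controls in that library. Ifit1, Ifit3, Isg15 and Usp18 were above both controls, as were Oas1a and Ifi44 by a small margin. Clec4f, a marker of Kupffer cells, had counts in all 4 livers (532 to 1037). Of the 10 lymphocyte markers, 8 had counts in KO-F1 replicate 2. The cytotoxic cell genes Gzma (31 counts, against 2 to 5), Nkg7 (21, against 1 to 9) and Cd8a (13, against 0 to 3) were higher there, and Ms4a1 and Klrb1c were at 0. The share of counts from ribosomal RNA (Rn45s) was 1.21% and 1.59% in KO-F1 and 0.636% and 0.706% in Ctrl-F1 liver. Of the 10 hepatocyte markers 0 passed the threshold, but at an unadjusted p under 0.05 were 2 higher in KO-F1 (Ttr, log2 fold change 0.52, and Apoa2, 0.49) and 3 lower (Tat, -0.87, Cps1, -0.68, and Pck1, -0.60), and their summed level was 132842 and 122384 CPM in Ctrl-F1 and 135659 and 149176 CPM in KO-F1 liver. The part of these cells, of the hepatocyte markers and of ribosomal RNA in the result was not tested.

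**Figure D4:**
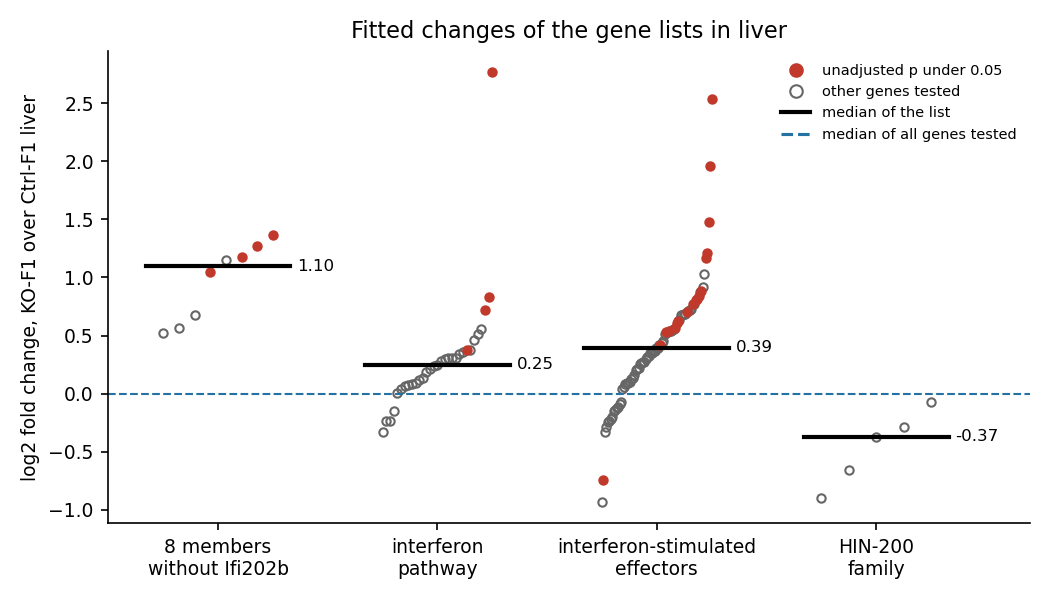
Log2 fold changes in liver (KO-F1 over Ctrl-F1, edgeR) of the 8 members without Ifi202b, the 31 pathway genes, the 76 effectors and the 5 HIN-200 genes tested. Each point is a gene, red where the unadjusted p is under 0.05. Black bars are list medians (1.10, 0.25, 0.39 and -0.37) and the dashed line is the median of all 11505 genes tested.

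In spermatozoa the 8 genes were low and varied within groups. Of the 4 tested between KO-F1 and Ctrl-F1 (Ifit1, Ifit3, Isg15 and Irf7), 0 passed the threshold, against 0% of 10785 genes, and 0 had an unadjusted p under 0.05, against 19.5%. DESeq2 called 0 of the 9. It gave an adjusted p to 5000 of 16807 genes and called 7.8% of these. A member without an adjusted p could not be called, so its 0 decides nothing. Ifit3 was counted 0 and 8 times in the Ctrl-F1 libraries and reached 42 and 46 counts (12.6 and 19.7 CPM) with KO-F1 males, and the groups did not overlap. Its log2 fold change was 2.36 with an SE of 1.53 (edgeR adjusted p = 0.446). Ifit1 had 13 and 0 counts against 25 and 26 (log2 fold change 1.57, SE 1.52, adjusted p = 0.626). Controls were at 0 and 6.75 CPM for Ifit3 and at 5.63 and 0 CPM for Ifit1, so each fold depended on the control used. Both genes passed the filter on low counts, which needs 2 libraries, only with the KO-F1 libraries. No conclusion is therefore drawn from their tests. Both KO-F1 libraries were higher for these 2 genes, a pattern seen in 28.3% of the genes tested.

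The others did not show it. Isg15 was at 8.67 and 12.7 CPM in Ctrl-F1 and 9.88 and 2.14 CPM in KO-F1 spermatozoa (log2 fold change -0.84, SE 1.14, edgeR adjusted p = 0.750). Irf7 was at 9.10 and 22.8 CPM against 14.4 and 18.4 CPM (log2 fold change 0.05, SE 0.79). For Usp18 the Ctrl-F1 counts were 13 and 1 and the KO-F1 counts 4 and 0, while Ifit2 had 19 and 0 against 0 and 9, Oas1a 0 and 4 against 2 and 0, and Ifi44 0 and 0 against 6 and 0. These last 4 were too low to test. Per kilobase of exon, Irf7 (8.83 ± 1.55), Ifit3 (8.08 ± 2.53) and Isg15 (7.95 ± 7.24 CPM per kb) were the highest in KO-F1 spermatozoa and did not differ beyond their spread, and Ifi202b was at rank 4 with 3.76 ± 1.78 CPM per kb (SD, n = 2).

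In KO-F2 spermatozoa the 8 genes differed between the 2 libraries, with replicate 2 higher in each of them. Ifit1 had 5 and 61 counts, Ifit3 10 and 40, Irf7 16 and 104, Isg15 44 and 58, Usp18 30 and 52 and Oas1a 16 and 21. Against Ctrl-F1 spermatozoa, 6 of the 8 were tested, with 3 values above 0, beside 53% of all genes. In edgeR 0 passed the threshold (0% of 13149 genes) and 0 had an unadjusted p under 0.05 (14.9%), and DESeq2 called 0 (2.14% of 12963). Isg15 was lower in both KO-F2 libraries (3.91 and 7.08 CPM, log2 fold change -0.93, SE 0.74, edgeR adjusted p = 0.630).

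Against KO-F1 spermatozoa, 0 of 6 members tested, Ifi202b included, passed the threshold, where 2.31% of 13517 genes did, and DESeq2 called 0, beside 13.6% of 15135. An unadjusted p under 0.05 was found for 1 of them, beside 36.8% of all genes. Ifit3, the 1 in question, was lower, at 0.89 and 4.88 CPM, with a log2 fold change of -2.35 (SE 0.88, unadjusted p = 0.0309, edgeR adjusted p = 0.0995). Ifit1, Ifit3 and Irf7 passed the filter on low counts, which needs 2 libraries, only with the KO-F1 libraries. No conclusion is therefore drawn from their tests. Usp18, with 4 and 0 counts in KO-F1, was at 2.67 and 6.34 CPM and passed the filter on low counts through KO-F2 alone. Irf7 was lower in both, at 1.42 and 12.7 CPM (log2 fold change -1.08, SE 0.92, adjusted p = 0.438). The groups did not overlap for Ifit3, Irf7 and Usp18, as in 28.7% (lower) and 37.2% (higher) of all genes. Over the members other than Ifi202b that each fit tested (5 with all 4 libraries), the median was -1.08. All of these but Isg15 passed the filter through 1 group only, so no conclusion is drawn from this median. It was -0.14 without KO-F2 replicate 1 and -3.57 without KO-F2 replicate 2, so its size depended on the library.

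**Figure D5:**
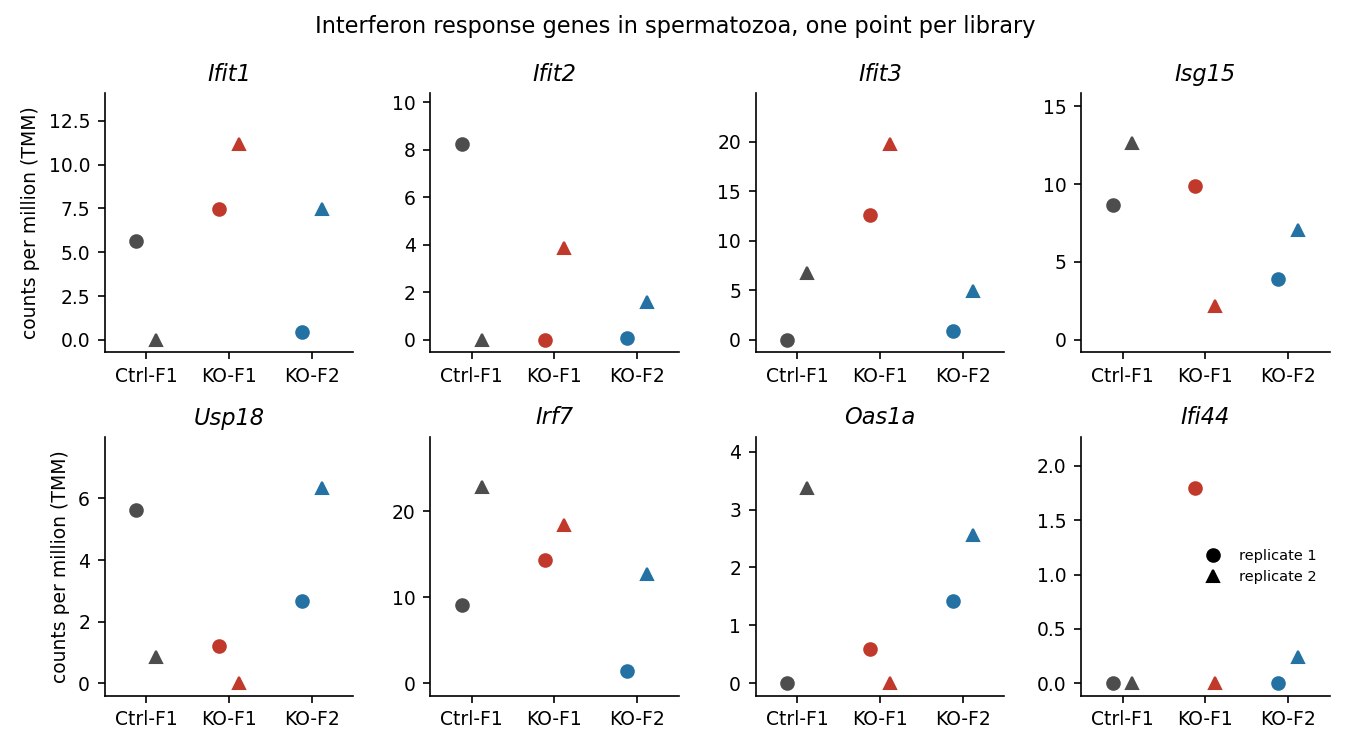
Levels of the 8 genes in the 6 sperm libraries, in CPM (TMM), each panel with its own axis. Circles are replicate 1 and triangles replicate 2. KO-F1 lies above both other groups for Ifit3, and KO-F2 replicate 2 is above replicate 1 in every panel.

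The interferon lists also gave 0 calls in edgeR in the 3 sperm comparisons. Between KO-F1 and Ctrl-F1 spermatozoa, 15 of 27 pathway genes and 20 of 39 effectors had values above 0, with medians of 0.22 and 0.04 beside 0.02 over all genes. The effector median was -0.17 without KO-F1 replicate 2 (all genes -0.04) and 0.50 without Ctrl-F1 replicate 1 (all genes 0.24). The pathway median was 0.63 without Ctrl-F1 replicate 2 (all genes 0.14). At an unadjusted p under 0.05 there were 3 and 2 genes of the lists with all 4 libraries, beside 19.5% of all genes. Isg20, an RNA exonuclease, had the smallest p, at 126 and 197 CPM in Ctrl-F1 and 668 and 370 CPM in KO-F1 (log2 fold change 1.66, SE 0.45, edgeR adjusted p = 0.142), and was called by DESeq2 (adjusted p = 0.00194). Jak2, a receptor-associated kinase, had 60 and 16 counts against 211 and 138 (1.58, SE 0.57, edgeR adjusted p = 0.190). Irf9, the DNA-binding part of the type I response complex, had 20 and 1 counts against 92 and 62 (2.36, SE 1.01, edgeR adjusted p = 0.249). It passed the filter on low counts, which needs 2 libraries, only with the KO-F1 libraries, so its test decides nothing. The other 2 had lower fitted levels in KO-F1 without passing. The DNA sensor Mb21d1 had 29 and 8 counts against 0 and 1, and passed the filter on low counts through Ctrl-F1 alone, and H2-K1, a class I antigen-presenting molecule, 756 and 435 against 315 and 505. The 2 HIN-200 genes tested, outside both lists, had 1 value above 0 and 1 below. Pyhin1 had 30 and 16 counts against 3 and 0 and passed the filter in the same way as Mb21d1. Ifi205 had 0 and 2 counts against 13 and 11, and Mnda 0 and 0 against 6 and 14. Ifi205 and Mnda, also within 1 Mb of Ifi202b, were named after their values were seen.

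Some immune cell markers had counts in KO-F2 sperm libraries and few or none in F1 sperm libraries. The 10 lymphocyte markers summed to 354 and 247 CPM, against 6.86 to 40.5 CPM in F1 spermatozoa, and Cd79a, a B cell receptor subunit, had 1798 and 846 counts against at most 4. The 10 macrophage markers summed to 350 and 768 CPM, against 121 to 336 CPM. Of these, Cd5l, Vsig4 and Marco had counts in KO-F2 alone, Csf1r had a log2 fold change of 0.21 (SE 0.75) against Ctrl-F1, and Clec4f was at 0 in all 6 sperm libraries. The summed level of 10 epididymal epithelium markers, most of it from Crisp1 and Adam7, was lower, at 3355 and 1633 CPM in KO-F2 against 8322 to 21040 CPM in F1 spermatozoa. Single markers differed, with fitted values above 0 in 3 of 8 tested against Ctrl-F1 and 2 of 8 against KO-F1. Rn45s took 13.3% and 3.52% of counts against 15.7% to 28.7%. The part of these in the KO-F2 values was not tested. Against Ctrl-F1, the median of 31 pathway genes was 0.65 and that of 56 effectors 0.26, beside 0.07 over all genes, with 6 and 7 genes at an unadjusted p under 0.05 (14.9% of all genes). The effector median turned to -0.50 with at least 10 counts in every library (7 of 18 above 0, all genes -0.03). It was -0.13 when scaled to the late spermatid markers (all genes -0.36) and 1.02 without Ctrl-F1 replicate 1 (all genes 0.43). The pathway median was 0.46, 0.23 and 0.79 in the same settings. Irf2, a transcription factor of the interferon system, went from 5 and 0 counts (Ctrl-F1) to 248 and 293 (KO-F2, edgeR adjusted p = 0.184, called by DESeq2 at 0.00200). H2-K1 was at 328 and 367 CPM against 82.2 and 148 CPM (log2 fold change -1.58, SE 0.37, edgeR adjusted p = 0.203, called by DESeq2 at 0.00776). Tor3a (83 and 75 counts), Phf11b (57 and 45) and the RNA-editing enzyme Adar (55 and 40) were at 0 counts in both Ctrl-F1 libraries. The filter on low counts, which needs 2 libraries, was passed by these 3 and by Irf2 only with the KO-F2 libraries. For that reason no conclusion is drawn from their tests.

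Against KO-F1 the medians were 0.50 and 0.21, beside 0.13, with 12 of 31 and 16 of 58 genes at an unadjusted p under 0.05, beside 36.8% of all genes, and DESeq2 called 1 and 4, beside 13.6%. Without KO-F2 replicate 2 the medians were 0.11 and -0.14, beside -0.005 over all genes. Without KO-F1 replicate 2 they were 0.84 and 0.67, beside 0.31. The effector median was also -0.08 with at least 10 counts in every library (all genes -0.04) and -0.09 after thinning (all genes -0.004). Irf5, a transcription factor abundant in B cells and macrophages, had 7 and 10 counts in KO-F1 and 355 and 224 in KO-F2 (log2 fold change 3.41, SE 0.57, edgeR adjusted p = 0.0117). Pml, the scaffold of nuclear bodies, had 0 and 1 counts against 144 and 113, and Helz2, a helicase, 0 and 0 against 92 and 33, so both passed the filter through KO-F2 alone. B2m, the light chain of class I molecules (log2 fold change -1.67, SE 0.38, adjusted p = 0.0269), and the GTPase Irgm1 (-2.08, SE 0.49, adjusted p = 0.0287) were lower.

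Likeness to Ifi202b across the 10 libraries is given as a description, since the 4 liver values are those by which the gene was chosen. Over 15486 genes with at least 10 counts in 2 libraries, the 5 with the highest Pearson correlation of log2(CPM + 1) with Ifi202b (CPM here scaled by the library total, without TMM) were Med7, a Mediator subunit (r = 0.92), Smndc1, a splicing factor (0.87), 1110001A16Rik (0.86), Magohb, of the exon junction complex (0.86), and Banf1, a chromatin-binding protein (0.86). Of these, 1 stayed among the first 5 with a pseudocount of 0.25 and 0 with Spearman's coefficient. Ifit3 was the nearest of the 8 members (r = 0.57, rank 1196), followed by Ifit1 (0.43, rank 2672). Usp18 had -0.27, and the other 5 lay between -0.21 and 0.06. These coefficients describe 10 libraries of 2 tissues that differ in depth and preparation.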

How the data were processed

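RNA sequencing of 10 libraries was used, and the other 37 samples of the series were not analysed here. The values deposited by the authors are raw read counts per gene symbol, which they made from single-end reads of 75 bp (stranded mRNA libraries for liver, amplified cDNA without molecular identifiers for spermatozoa) with HISAT2 2.1.0 on GRCm38 and featureCounts on uniquely aligned reads. The annotation and strand setting are not given in the sources used here. The 2 symbols listed more than once in each file were left out. PCR copies cannot be told apart, so intervals and limits cover counting error only.

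Each comparison was fitted on its own 2 groups with edgeR 4.0.16 in R 4.3.3 (filterByExpr with a minimum count of 10, TMM, quasi-likelihood F test, Benjamini-Hochberg adjustment over all genes tested). Calls needed a 2-fold change together with an adjusted p below 0.01, the thresholds of the study. The study applied them with DESeq2 1.16.1, so the edgeR calls here are not calls under its own method. DESeq2 1.42.0 with default settings was the second tool. Its shares are of the genes to which it gave an adjusted p, and a gene without one could not be called. SE is the log2 fold change divided by the square root of F. Scripts were tested on simulated data. Positions and sequences are from RefSeq GRCm38.p6, and a window of 75 bases counted as recurring when found exactly on either strand elsewhere. Named genes were all 9 members, in each comparison the 5 genes of the lists with the smallest unadjusted p together with any called, the expressed neighbours within 1 Mb, and the 5 genes most correlated with Ifi202b. The members and lists were chosen with earlier results of these data known. The liver libraries share a sequencing run name in the labels and the KO-F2 sperm libraries another, while F1 sperm libraries name none, so run and group cannot be told apart between KO-F2 and F1 spermatozoa. The labels call the 2 samples of a group replicates and the study calls them biological replicates. Alternatives were other normalizations, filters and thresholds, a replicate block, thinning, a common sperm model and leaving out each library. Some genes of the neighbourhood and the lists are counted in the totals but not reported here.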

Additional observations from a re-analysis of the deposited data

How the results depend on the processing

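The ratio of the KO-F1 mean of Ifi202b to the mean Ctrl-F1 detection limit ranged from 13.9 to 17.7 in liver and from 2.36 to 5.15 in spermatozoa. These ranges are over the normalizations and single libraries left out. In liver, the number of the 8 other members called was 2 with no filter (Ifit3 and Isg15) and 0 to 2 with 1 library left out, the 2 being Isg15 and Usp18 without Ctrl-F1 replicate 1. Calls over all genes were 107 without that library and 51 without Ctrl-F1 replicate 2, against 0. A fit with 1 sample in a group assumes that it varies like the other group. Pathway genes called in liver were 1 (Socs3) with DESeq2 and with no filter, and 0 to 1 with 1 library left out, and effectors 0 to 1 (Apol9a or Cxcl9). The fitted change of Ifit2 in liver ranged from -0.056 to 1.29.

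Between KO-F1 and Ctrl-F1 spermatozoa, effectors called were 1 (Isg20) with DESeq2 and with at least 10 counts in every library, and scaling to the late spermatid markers, chosen after seeing the data, gave 1 effector and 1 pathway gene (Jak2). That scaling moved the median of all genes to 1.92, and to -2.35 between KO-F2 and KO-F1. The change of Irf7 was -0.054 after thinning and -0.47 to 0.82 with 1 library left out, and that of Isg15 was 0.99 under the marker scaling. Between KO-F2 and Ctrl-F1 spermatozoa, DESeq2 called 1 pathway gene and 1 effector, and leaving out 1 library gave 0 to 3 and 0 to 1, the 3 without Ctrl-F1 replicate 2. There Ifit1 ranged from -2.61 to 7.73 (-0.0040 under the marker scaling), Ifit3 from -1.79 to 7.37, Usp18 from -0.30 to 2.44 and Oas1a from -0.71 to 6.85 with 1 library left out. Between KO-F2 and KO-F1 spermatozoa, pathway genes called were 1 with DESeq2, 4 with no filter, 2 with at least 10 counts in every library, 5 at an adjusted p under 0.05 and 0 to 4 with 1 library left out, and effectors were 4, 6, 3, 6 and 0 to 7, with 1 after thinning. The marker scaling gave 7 pathway genes, 18 effectors and 2 members (Ifi202b and Ifit3), all relative to its own median. Isg15 there was -0.016 with DESeq2, -0.020 with its size factors, -0.15 in 1 model of all 3 sperm groups, -2.39 under the marker scaling and -0.71 to 1.45 with 1 library left out. The causes were not tested.

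The shared numbers join different animals. Same-numbered deviations correlated at -0.16 in liver and between -0.01 and 0.16 in spermatozoa. A replicate block gave 1 pathway gene (Socs3) in liver, 2 pathway genes (Irf2 and Socs3) and 2 effectors (B2m and H2-K1) between KO-F2 and Ctrl-F1 spermatozoa, and Ifit1 at -0.15 and Ifit3 at 0.74 there, and moved all calls from 0 to 2 in liver, 0 to 362 for KO-F2 against Ctrl-F1 and 312 to 819 for KO-F2 against KO-F1. The crossed pairing, added after seeing the data, gave 0 calls among all genes in liver. Other tools and filters moved all calls from 0 to 20 (DESeq2) and 25 (no filter) in liver, to 390, 113 and 200 (at least 10 counts in every library) for KO-F1 against Ctrl-F1 spermatozoa, to 277 and 39 for KO-F2 against Ctrl-F1, and from 312 to 2058, 2552 and 1805 for KO-F2 against KO-F1. At 1503733 to 2778171 counts per F1 sperm library, members under 3 counts could not be told from 0.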
